A study of Homo sapiens with 6 samples.

Results

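The genes described here are 9 human genes of double-stranded RNA (dsRNA) sensing and the antiviral response, out of 63140 genes in the count table. They were taken by name: the sensors EIF2AK2, RIGI, IFIH1 and DHX58, the adaptor MAVS, the transcription factor IRF3, the editing enzyme ADAR, and the effectors IFIT5 and ISG15. Each name matched 1 Ensembl identifier, and RIGI is the current symbol of the gene once called DDX58. The libraries came from HEK293T, an immortalised human embryonic kidney line that carries the SV40 large T antigen. One group received a miR-34a duplex and the other the AllStars negative control from Qiagen, which the sample labels call an siRNA and the series text a miRNA. Both groups were therefore transfected with a short RNA. Untransfected cells were not analysed here, so the comparison shows how the miR-34a duplex differed from the control RNA, not what transfection itself did. RNA was collected 18 h after transfection, with 3 libraries in each group that the series text calls biological replicates. Both groups are 1 established line, not separate donors.

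Cells recognise long or unmodified dsRNA as a sign of viral infection. In the cytoplasm RIG-I (RIGI) and MDA5 (IFIH1) bind dsRNA and signal through MAVS on mitochondria to the transcription factor IRF3, which switches on type I and type III interferon genes. Interferon in turn induces a large set of interferon-stimulated genes through kinases that include JAK1 and through transcription factors. These factors bind a promoter sequence called the interferon-stimulated response element. PKR (EIF2AK2) binds dsRNA directly and shuts down translation by phosphorylating eIF2 alpha. A microRNA duplex is itself a short dsRNA, and whether a transfected duplex is seen by these sensors is a common check in such experiments.

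The sequences that link the duplex to these genes are its guide and passenger strands, shown with the seed (bases 2 to 8) in capitals. They are the RefSeq mature sequences, build GRCh38.p14; the exact duplex used is not given in the sources used here.

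hsa-miR-34a-5p: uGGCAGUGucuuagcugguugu
hsa-miR-34a-3p: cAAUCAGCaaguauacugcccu

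Seed matches of miR-34a-5p were searched in the 3′ UTR of the longest coding transcript of each gene in GENCODE release 29: the 8mer CACTGCCA, the 7mer-m8 CACTGCC, the 7mer-A1 ACTGCCA and the 6mer ACTGCC. Of the 8 genes of the set with a 3′ UTR long enough to search, EIF2AK2, RIGI and MAVS held a match of at least 7 bases. Among all 12895 tested genes that were searched, 20.9% held one; RIGI, which was not tested, is not among them. This share does not allow for 3′ UTR length. The 3′ UTRs searched were 8063 nt in EIF2AK2, 1417 nt in RIGI and 9963 nt in MAVS. Those without such a match were 121 nt in IFIH1, 357 nt in DHX58, 2744 nt in ADAR, 2353 nt in IFIT5 and 62 nt in ISG15. The matched stretches are shown in the sense of the mRNA, with the match in capitals.

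EIF2AK2, 7mer-A1: accattctaaaACTGCCAtatgattttag
RIGI, 7mer-A1: ttttagagtcaACTGCCAacaaacacaca
MAVS, 7mer-m8: ctttttcactcCACTGCCctaggggagtt
MAVS, 6mer: ccaggagcccaACTGCCttgagttcctg

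The EIF2AK2 match lies in the last of 17 exons at chr2:37105186-37105192 on the minus strand, 2081 nt after the stop codon of a 3′ UTR of 8063 nt. The RIGI match lies in the last of 18 exons at chr9:32456857-32456863 on the minus strand, 259 nt after the stop codon. The 7mer-m8 of MAVS lies in the last of 7 exons at chr20:3868058-3868064 on the plus strand, 1911 nt after the stop codon of a 3′ UTR of 9963 nt, and its 6mer at chr20:3866678-3866683. IFIH1, DHX58, ADAR, IFIT5 and ISG15 held none of these letters in the 3′ UTR searched. The chosen transcript of IRF3 has a 3′ UTR of 17 nt, under the minimum of 50, and was not searched. No 7mer or 8mer match of the passenger strand was found in the 8 searched 3′ UTRs.

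The second sequence feature is the core of the interferon-stimulated response element, GAAA, any 2 bases and GAAA again, searched on both strands (TTTC, any 2 bases, TTTC on the other) in the RefSeq promoter windows of 250 bases before to 50 after the gene start, with overlapping matches counted. Of the 7 genes of the set with such a window, EIF2AK2, IFIH1, IFIT5 and ISG15 held it, against 3.57% of all 35116 windows of the same length. That share counts windows, and a gene can have several. Counted by gene, with a match in any window, 445 of the 11885 tested genes with a window held it. Of 48 genes with a window in a list of interferon-stimulated genes, described below, 35 held it. The stretches are shown in the direction of transcription with the matches in capitals.

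EIF2AK2, chr2:37156975-37156998, minus strand: ggagtccaagggGAAAACGAAAct
ISG15, chr1:1013372-1013411, plus strand: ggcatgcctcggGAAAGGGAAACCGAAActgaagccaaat
IFIT5, chr10:89414511-89414573, plus strand: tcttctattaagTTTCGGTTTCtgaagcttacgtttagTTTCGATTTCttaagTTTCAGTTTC
IFIH1, chr2:162318684-162318855, minus strand: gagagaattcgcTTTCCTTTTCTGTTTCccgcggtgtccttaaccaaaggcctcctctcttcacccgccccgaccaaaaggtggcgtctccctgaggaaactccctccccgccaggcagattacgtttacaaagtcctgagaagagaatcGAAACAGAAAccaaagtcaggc

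Positions are counted from the RefSeq start of each window, which can differ from the GENCODE gene spans given below. For ISG15 the window, chr1:1013247-1013546, lies inside that span. The match of EIF2AK2 begins at -6 and those of IFIT5 at -45, -19 and -4. Those of ISG15 begin at -113 and -107 as an overlapping pair. IFIH1 held 3 matches, at -159, -153 and -21, of which the first pair overlap. The windows of RIGI and MAVS and the 3 windows of ADAR held no such letters, which says nothing about other forms of the element.

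Library totals ranged from 24728662 to 36650331 counts. The transfected duplex is not itself measured in these libraries. As a check of the labels, 27.7% of the 675 tested genes with an 8mer fell with miR-34a, against 4.88% of the 8906 genes with no match. Of the 5 markers of HEK293T cells, VIM, NEFM and NEFL stood at 215, 178 and 65.3 CPM (counts scaled to library size and composition) in the control and LHX1 and PAX2 at 3.27 and 1.74 CPM; NEFL and NEFM fell with miR-34a (log2 fold changes -0.32 and -0.22, adjusted p = 0.0041 and 0.037). Of 10 markers of other cells, CD3E, DCN and COL1A2 had no count in any library and the sum of all 10 was 23.6 to 29.7 CPM in control and 23.9 to 26.4 CPM in miR-34a libraries, most of it COL1A1. One library stood apart at 1 gene: SIRT1 was at 428 CPM in miR-34a replicate 2 and at 49.7 to 92.4 CPM in the other 5. The part of these features in the results below was not tested; values without miR-34a replicate 2 are given where it changes a call. Since these are bulk libraries, fewer cells expressing a gene and less RNA per cell cannot be told apart. Whether the replicates came from separate cultures is not stated, so p-values measure only the spread between these libraries.

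With miR-34a, 1 of the 9 genes rose, EIF2AK2, by 1.19-fold, and none fell. MAVS had a similar difference and did not pass, 6 others did not pass, and RIGI had too few counts to be tested. Over all 17427 tested genes 12.1% were called changed, 5.38% higher and 6.7% lower (edgeR quasi-likelihood test, Benjamini-Hochberg adjusted p under 0.05), so 1 call among 8 tested genes is near the background share. By an unadjusted p under 0.05 (edgeR), 2 of the 8 passed, EIF2AK2 and MAVS. Over all 17427 tested genes 4259 passed in this way, so this too is near the background share. The median log2 fold change of the 8 tested genes was 0.04, beside -0.004 for all tested genes, with 4 above and 4 below 0.

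EIF2AK2 encodes PKR, the kinase that is activated by dsRNA and phosphorylates eIF2 alpha. It lies at chr2:37099210-37157065 on the minus strand. Its level was 117, 96.9 and 106 CPM in control replicates 1 to 3 and 124, 127 and 128 CPM in miR-34a replicates 1 to 3. All 3 miR-34a libraries were above all 3 control libraries, and the control libraries were spread more widely, with an SD of 10.2 against 2.16 CPM. Groups did not overlap in 27.3% of all tested genes, with miR-34a above in 13.1%. The log2 fold change was 0.25 ± 0.07 (SE, n = 3 per group), with a 95% interval of 1.07 to 1.32-fold and an adjusted p of 0.025 by edgeR. The call held in 2 of the 6 fits that left out 1 library, which also have fewer libraries to test with. Leaving out control replicate 2 gave 0.18 with an adjusted p of 0.15, and leaving out control replicate 3 gave 0.24 with 0.098. Leaving out the second or the third miR-34a library gave 0.25 with 0.089 and 0.24 with 0.061. The call held without the first control library (0.33, adjusted p = 0.0023) and without the first miR-34a library (0.26, adjusted p = 0.046). The share of all genes called higher moved as well: it was 7.13% without control replicate 1, 2.96% without the second and 3.41% without the third, and 4.29%, 3.33% and 3.72% without the miR-34a libraries in the same order. With all libraries kept, EIF2AK2 was called under each of the 6 other settings, in which 5.66% (size factors of DESeq2), 6% (scaling by library size only), 3.14% (no filter), 6.76% (at least 1 CPM in 3 libraries), 7.49% (DESeq2) and 4.63% (replicate block) of all genes were called higher. On the opposite strand, 3.73% of its exonic length is shared with the pseudogene ARL14EPP1, which had 0.01 CPM in the control, and 0.33% with GPATCH11, which had 58.5 CPM and a log2 fold change of 0.36.

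**Figure D1:**
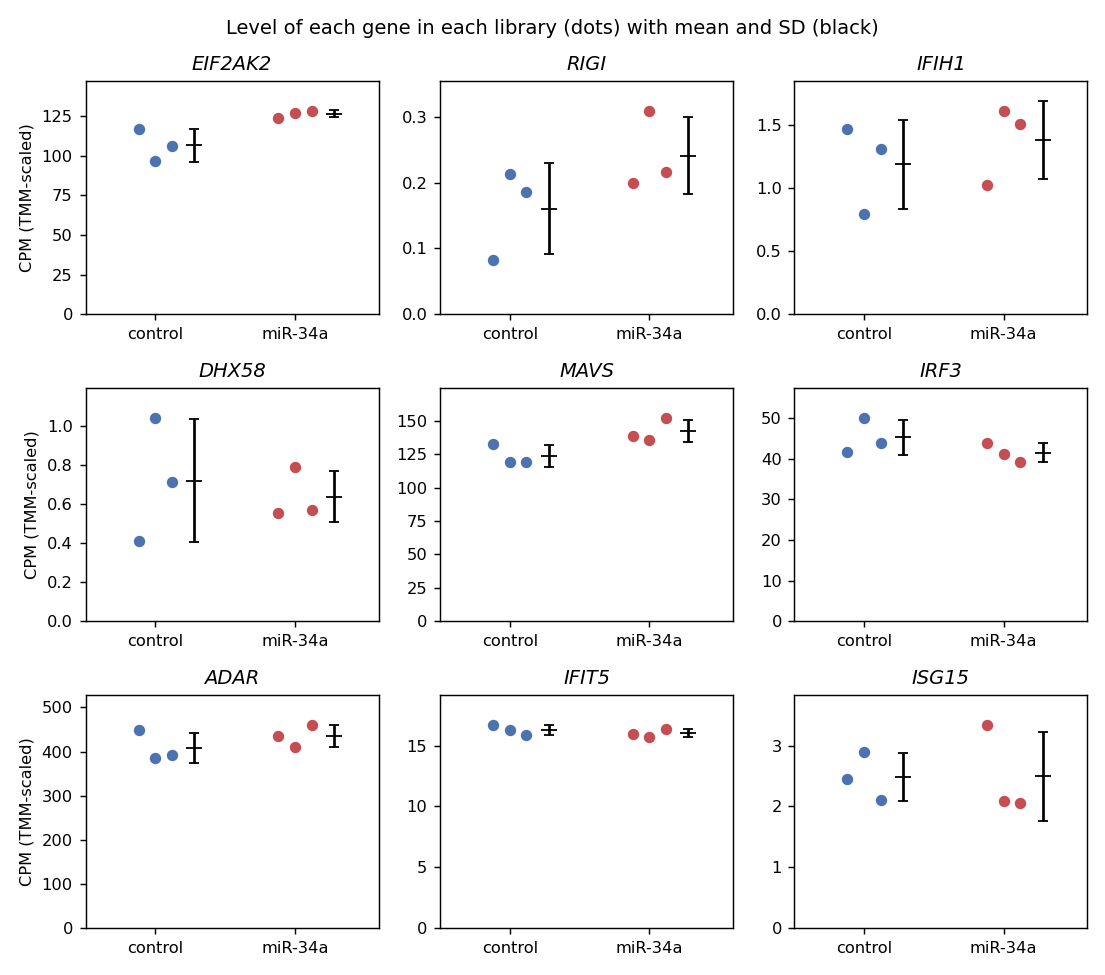
Level of each of the 9 genes in CPM scaled for library composition (vertical axes, each from 0), in the 3 control libraries (blue) and the 3 miR-34a libraries (red); black marks give the mean and SD. EIF2AK2 and MAVS have all miR-34a libraries above all control libraries, as have 13.1% of all tested genes. The groups overlap in the other 7 genes, and RIGI stays under 0.4 CPM in every library.

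RIGI encodes RIG-I, a helicase that recognises short dsRNA with a 5′ triphosphate. Located at chr9:32455705-32526324 on the minus strand, it held 2, 7 and 6 counts in control replicates 1 to 3 and 5, 9 and 8 counts in the miR-34a replicates, or 0.0818 to 0.213 CPM and 0.199 to 0.308 CPM. The groups overlap, and the gene stayed under the minimum for testing. Without a filter edgeR gave it a log2 fold change of 0.55 ± 0.73 (SE) and an adjusted p of 0.75, so a difference was not detectable at this depth.

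IFIH1 encodes MDA5, the related helicase that binds long dsRNA. IFIH1, at chr2:162267079-162318703 on the minus strand, had 1.47, 0.793 and 1.31 CPM without and 1.03, 1.61 and 1.51 CPM with miR-34a, from 26 to 56 counts. The lowest library was control replicate 2, and the groups overlap. Its log2 fold change was 0.25 ± 0.30 (SE), about the same estimate as for EIF2AK2 but with an interval of 0.776 to 1.81-fold (adjusted p = 0.68, edgeR).

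DHX58 encodes LGP2, the third RIG-I-like helicase, which has no signalling domain and modulates the other two. DHX58, at chr17:42101404-42112733 on the minus strand, had 0.409, 1.04 and 0.715 CPM without and 0.556, 0.788 and 0.568 CPM with miR-34a, from 10 to 34 counts. The miR-34a values all fell within the range of the control. By edgeR the log2 fold change of -0.21 ± 0.39 (SE) had an adjusted p of 0.81, and without control replicate 2 it was 0.15.

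MAVS encodes the mitochondrial adaptor through which RIG-I and MDA5 signal. MAVS, at chr20:3846799-3876123 on the plus strand, had 133, 119 and 119 CPM without and 139, 136 and 152 CPM with miR-34a. All 3 miR-34a libraries were above all 3 control libraries, as in 13.1% of all tested genes. The margin between control replicate 1 and miR-34a replicate 2 was narrow. The log2 fold change was 0.20 ± 0.07 (SE), with an interval of 1.04 to 1.28-fold. The adjusted p was 0.063 by the edgeR quasi-likelihood test. It passed with no filter on low counts (0.22, adjusted p = 0.044), with library size as the only scaling (0.22, adjusted p = 0.045), by DESeq2 (0.21, adjusted p = 0.030) and without control replicate 1 (0.27, adjusted p = 0.014). The estimates of EIF2AK2 and MAVS thus lay close to each other, on either side of the threshold; their difference was not tested.

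**Figure D2:**
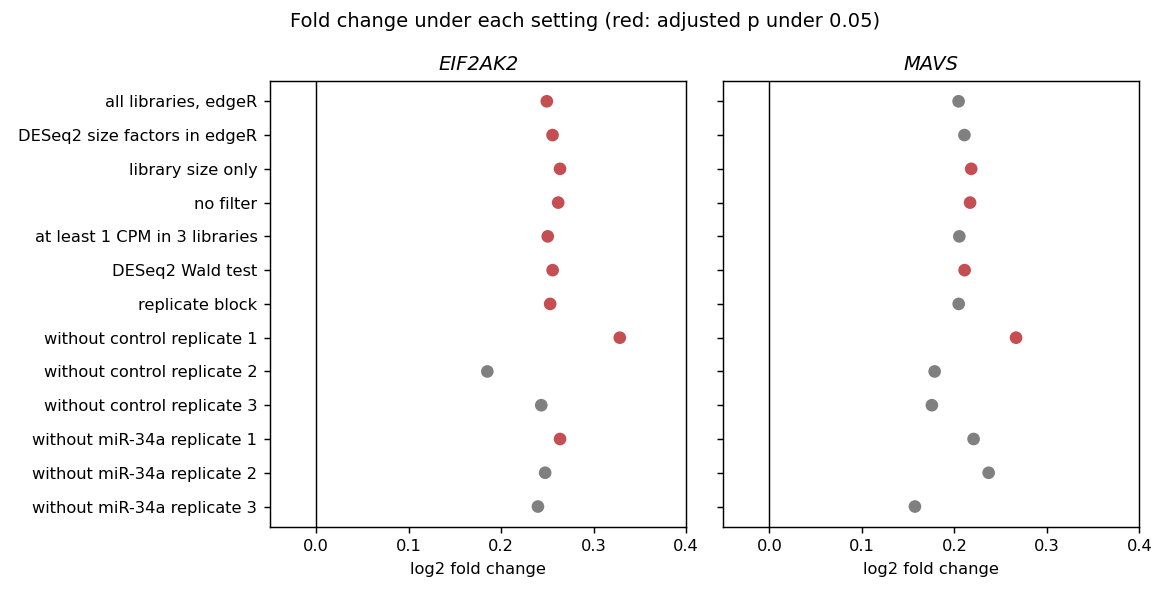
Log2 fold change of EIF2AK2 and MAVS (horizontal axes, miR-34a over control) with all libraries and under each alternative scaling, filter, test or left-out library; red points passed at an adjusted p under 0.05. All estimates lie between 0.16 and 0.33, and what varies is the side of the threshold.

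IRF3 encodes the transcription factor that is phosphorylated downstream of MAVS; its activity is controlled mainly on the protein, which RNA counts do not show. IRF3, at chr19:49659569-49665875 on the minus strand, had 41.8, 50 and 44 CPM without and 44, 41.1 and 39.3 CPM with miR-34a. The groups overlap, with control replicate 2 the highest library. A log2 fold change of -0.13 ± 0.08 (SE) resulted, with an interval of 0.814 to 1.02-fold (adjusted p = 0.35, edgeR). The value is uncertain, because 19.4% of its exonic length is shared with BCL2L12 on the opposite strand, which was as highly expressed (48.5 against 45.3 CPM in the control) and had a log2 fold change of -0.15.

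ADAR encodes the enzyme that converts adenosine to inosine in dsRNA and so keeps the cell's own dsRNA from being sensed. ADAR, at chr1:154582057-154628013 on the minus strand, had 448, 385 and 392 CPM without and 436, 411 and 460 CPM with miR-34a. The groups overlap, with control replicate 1 above 2 of the miR-34a libraries. ADAR had a log2 fold change of 0.10 ± 0.07 (SE) and an interval of 0.962 to 1.19-fold (adjusted p = 0.47, edgeR).

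IFIT5 encodes an RNA-binding protein of the interferon-induced IFIT family. IFIT5, at chr10:89414586-89421001 on the plus strand, had 16.7, 16.3 and 15.9 CPM without and 16, 15.7 and 16.4 CPM with miR-34a. The groups overlap, and the libraries were close to each other, with a coefficient of variation of 2.37% in the control and 1.99% in the miR-34a group. IFIT5 had a log2 fold change of -0.02 ± 0.09 (SE) with an interval of 0.862 to 1.13-fold (adjusted p = 0.92, edgeR).

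ISG15 encodes a ubiquitin-like protein that is attached to other proteins during an antiviral response and is among the most strongly interferon-induced genes. ISG15, at chr1:1001138-1014540 on the plus strand, had 2.45, 2.90 and 2.11 CPM without and 3.34, 2.09 and 2.05 CPM with miR-34a. The highest value was miR-34a replicate 1, while the other 2 miR-34a libraries lay below all control libraries. The group means were 2.49 and 2.49 CPM, with a log2 fold change of -0.02 ± 0.22 (SE) and an interval of 0.718 to 1.36-fold (adjusted p = 0.98, edgeR). The sign depended on the libraries, with -0.26 without miR-34a replicate 1, 0.12 without control replicate 2, and 0.093 and 0.11 without miR-34a replicates 2 and 3.

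**Figure D3:**
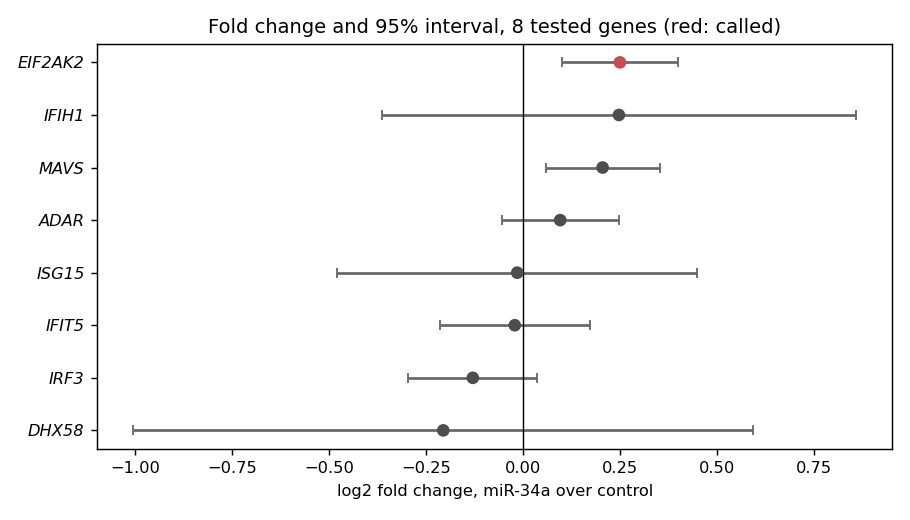
Log2 fold change of miR-34a over control (horizontal axis) with its 95% interval for the 8 tested genes; the called gene, EIF2AK2, is red. The intervals of EIF2AK2 and MAVS lie above 0, and those of IFIH1, DHX58 and ISG15 are the widest.

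Per length, ADAR was the most abundant and the RIG-I-like sensors the least. In the control, ADAR was at 42.1 ± 3.58 CPM per kilobase of merged exons (SD, n = 3), IRF3 at 11.9 ± 1.11, MAVS at 10.5 ± 0.711 and EIF2AK2 at 9.91 ± 0.953. IFIT5 followed at 4.06 ± 0.0962 and ISG15 at 2.64 ± 0.417. IFIH1 was at 0.233 ± 0.0693, DHX58 at 0.187 ± 0.0817 and RIGI at 0.0369 ± 0.0160 CPM per kilobase. The ranges of IRF3 and MAVS overlap, as do those of MAVS and EIF2AK2 and those of IFIH1 and DHX58, so these neighbours are not ordered. With miR-34a, MAVS was at 12.1, EIF2AK2 at 11.8 and IRF3 at 10.9; the libraries of IRF3 reached 11.6 and those of EIF2AK2 began at 11.5 and of MAVS at 11.6, so these 3 are not ordered there either. Merged exons include exons that these cells may not use, which lowers the value of a gene with many transcripts or a long 3′ UTR.

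**Figure D4:**
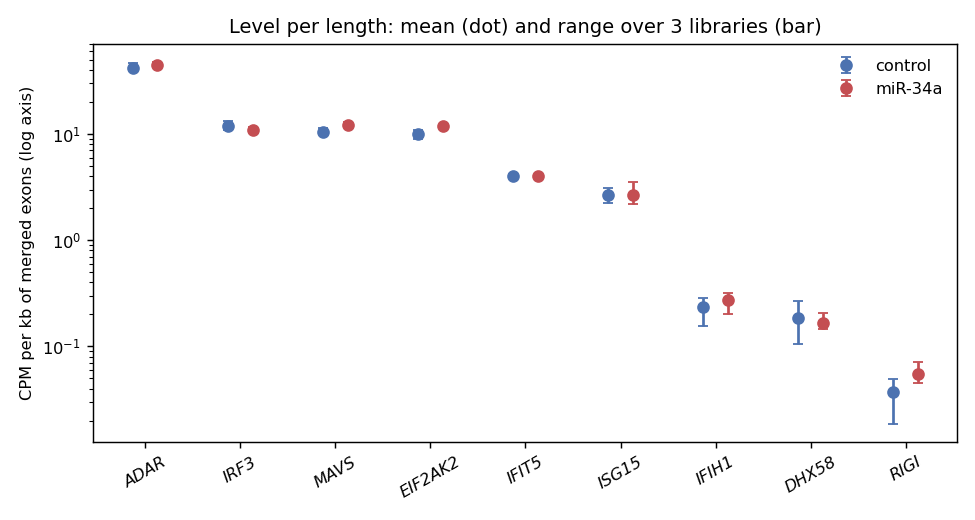
Level per kilobase of merged exons (log axis) for the 9 genes in control (blue) and miR-34a (red) libraries; dots are means of 3 libraries and bars the lowest and highest library. ADAR is near 40, MAVS, IRF3 and EIF2AK2 near 10, and IFIH1, DHX58 and RIGI under 0.4.

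Of 8 early outputs of the pathway, 7 were at 0 or a few counts in both groups and IFIT1 was expressed. IFNB1 (interferon beta), IFNA1, IFNL1 (a type III interferon) and the dsRNA-activated synthetase OAS1 had 0 counts in all 6 libraries. A count of 0 allows up to 3 counts, or 0.0819 to 0.121 CPM by library, counting error only. This limit takes each count as independent; 62.6% of all counts from 1 to 10 were even, and where counts come in pairs the limit would be higher. The chemokine gene CXCL10 had 2 counts in control replicate 2 and none elsewhere. The chemokine gene CCL5 had 3 counts in control replicate 3, and 3 and 2 counts in miR-34a replicates 2 and 3. MX1, a GTPase that blocks viruses, had 0, 0 and 2 counts in the control and 2, 2 and 8 counts in the miR-34a libraries, which is too few to test. IFIT1, which binds viral RNA caps, was expressed at 4.09, 4.97 and 4.44 CPM in the control and 4.97, 5.10 and 5.79 CPM with miR-34a, which is 0.23 ± 0.15 higher on the log2 scale and did not pass (adjusted p = 0.38, edgeR). IFIT1 was the only one of these 8 genes with enough counts to test.

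The wider list of genes that sense or bind dsRNA held 27 genes, of which 20 were tested, 2 rose and none fell. The share called was 10%, beside 12.1% of all tested genes; 10 were higher and 10 lower, with a median log2 fold change of 0.003. The second to rise beside EIF2AK2 was DICER1, the nuclease that cuts dsRNA into microRNAs, at 187, 150 and 152 CPM in the control and 189, 187 and 238 CPM with miR-34a (log2 fold change 0.33 ± 0.09, adjusted p = 0.015, edgeR). All miR-34a libraries were above all control libraries, as in 13.1% of all tested genes, though miR-34a replicate 2 and control replicate 1 both round to 187 CPM. Its 3′ UTR held a 6mer. The DICER1 call was lost by DESeq2 (adjusted p = 0.14), and also when control replicate 2 (0.12), control replicate 3 (0.094) or miR-34a replicate 3 (0.13) was left out.

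In the list of genes that carry the signal to IRF3 and NF-kB, 25 of 27 were tested, 1 rose and 2 fell (12% called, beside 12.1% of all tested genes), with a median log2 fold change of -0.01. TRIM14, a protein that binds MAVS, fell from 35.4, 34.3 and 33.2 CPM to 25.7, 25.3 and 24.4 CPM, 0.45 lower on the log2 scale (adjusted p = 0.00026). Its 3′ UTR held only 6mer matches, and 7.72% of its exonic length is shared with NANS on the opposite strand. CYLD, a deubiquitinase that restrains RIG-I and NF-kB signalling, rose from 53.5, 45.4 and 49.9 CPM to 59.8, 62.4 and 65.0 CPM (log2 fold change 0.33, adjusted p = 0.0036), and its 3′ UTR held a 7mer-A1 and a 6mer. TRIM14 and CYLD kept their calls in each fit with 1 library left out. IKBKE, an IRF3 kinase related to TBK1, fell from 1.96, 2.07 and 2.08 CPM to 1.23, 0.788 and 1.30 CPM (log2 fold change -0.88 ± 0.26, adjusted p = 0.026), and its 3′ UTR held an 8mer at chr1:206496651-206496658. IKBKE missed the threshold by DESeq2 (adjusted p = 0.055), and when control replicate 2 (0.089), control replicate 3 (0.087) or miR-34a replicate 2 (0.15) was left out. Its libraries held 23 to 68 counts each.

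Of 26 interferons, receptors and signalling genes behind them, 16 were tested, 2 rose and none fell (12.5% called, beside the same 12.1%), with a median log2 fold change of 0.09; 8 of the 10 untested had no count in any library. JAK1, a kinase of the interferon receptors, rose from 138, 125 and 133 CPM to 146, 154 and 162 CPM (log2 fold change 0.22 ± 0.07, adjusted p = 0.039, edgeR). All miR-34a libraries were above all control libraries, as in 13.1% of all tested genes. With the replicate number as a block it did not pass (adjusted p = 0.088). The JAK1 call ended when control replicate 2 (adjusted p = 0.15), control replicate 3 (0.12), miR-34a replicate 2 (0.12) or miR-34a replicate 3 (0.16) was left out. The related kinases TYK2 and JAK2 had log2 fold changes of -0.05 and 0.02 and did not pass. The transcription factors STAT2 and IRF9 had log2 fold changes of -0.02 and 0.05. Of the 16 tested genes of this list, 11 were higher and 5 lower with miR-34a.

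Of 60 listed interferon-stimulated genes, 38 were tested, 1 rose and 4 fell. The share called was 13.2%, beside 12.1% of all tested genes, with 2.6% rising beside 5.38% and 10.5% falling beside 6.7%. In this list 27 genes were lower and 11 higher, and the median log2 fold change was -0.11, beside -0.004 for all tested genes. DDX60, a helicase linked to RIG-I signalling, rose from 2.94, 2.13 and 2.05 CPM to 3.97, 3.49 and 4.16 CPM (log2 fold change 0.72 ± 0.19, adjusted p = 0.014). TRIM69 fell from 10.6, 9.94 and 10.2 CPM to 7.23, 6.47 and 6.49 CPM (-0.61, adjusted p = 0.00099) and kept its call in each fit with 1 library left out. The class I antigen presentation genes HLA-B and HLA-C fell by 0.29 and 0.25 on the log2 scale (adjusted p = 0.011 and 0.027); reads of these closely related genes may have been split between them. IFI35, named after its value was seen, fell from 1.39, 1.68 and 1.80 CPM to 1.03, 0.993 and 0.622 CPM (-0.91 ± 0.29, adjusted p = 0.043, edgeR). Its libraries held 23 to 58 counts each, and its 3′ UTR held a 7mer-m8. No match was found in the 3′ UTRs of TRIM69, DDX60 and HLA-C.

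Apart from TRIM69, these calls were lost in some of the fits that left out 1 library. Without control replicate 2, adjusted p was 0.076 for DDX60, 0.092 for HLA-B, 0.18 for HLA-C and 0.13 for IFI35, and 1 listed gene fell. Without miR-34a replicate 2 it was 0.052 for HLA-B, 0.13 for HLA-C and 0.070 for IFI35, and again 1 gene fell. Without control replicate 3, DDX60 (0.084) and IFI35 (0.16) were lost. Without miR-34a replicate 3, DDX60 (0.063), HLA-C (0.082) and IFI35 (0.21) were lost. HLA-C also missed the threshold with the replicate block (0.051), and IFI35 with library size as the only scaling (0.051). No DESeq2 result was available for IFI35.

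**Figure D5:**
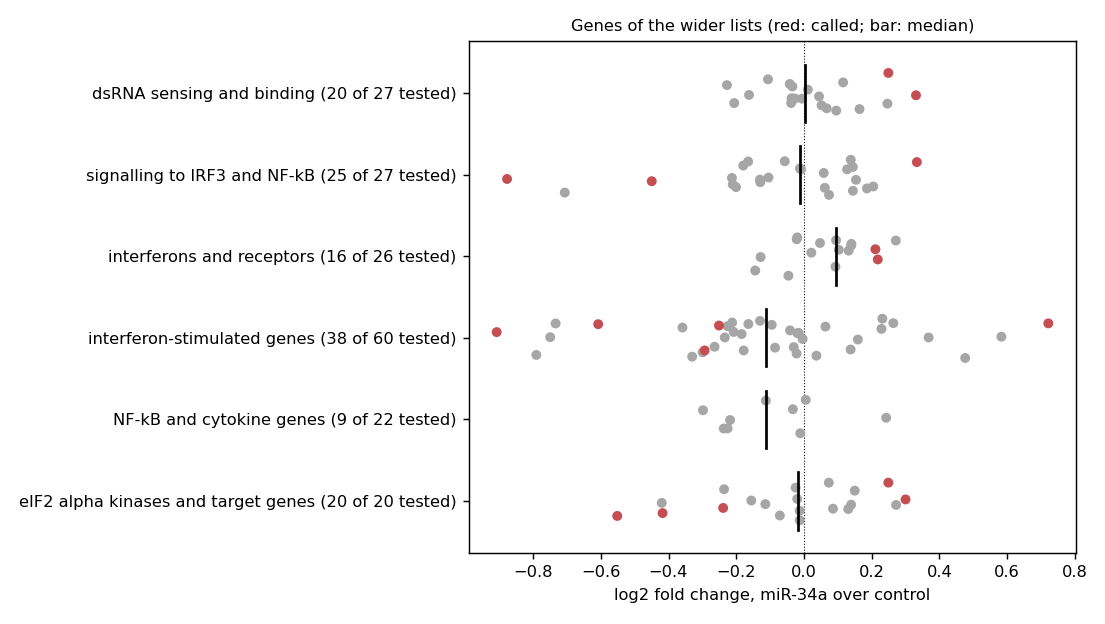
Log2 fold change of miR-34a over control (horizontal axis) for each tested gene of the 6 wider lists; red points were called, black bars are list medians and the vertical jitter is only for display. Medians lie between -0.11 and 0.09, and the interferon-stimulated genes have more points below 0 than above.

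None of the 9 tested NF-kB and cytokine genes, of 22 listed, passed by edgeR, and none passed by DESeq2. By edgeR, 2 of the 9 had an unadjusted p under 0.05, near the share of all tested genes (4259 of 17427). Of the 9, 7 were lower and 2 higher. The most expressed were TNIP1, a brake on NF-kB, at 61.7 to 64.2 CPM in the control and 61.4 to 65.2 CPM with miR-34a, and the inhibitor NFKBIB, at 35.7, 37.4 and 39.1 CPM against 31.1, 31.1 and 34.2 CPM (log2 fold change -0.22 ± 0.08, adjusted p = 0.073).

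Genes around the target of PKR moved in both directions. All 20 listed eIF2 alpha kinases, eIF2 and eIF2B subunits and target genes were tested; 2 rose and 3 fell, which is 25% called beside 12.1% of all tested genes. Of the 20, 12 were lower and 8 higher, and the median log2 fold change was -0.02. EIF2AK2 was the only kinase of the 4 to pass; EIF2AK1, EIF2AK3 and EIF2AK4 had log2 fold changes of -0.16, -0.07 and 0.07. PPP1R15B, which directs the phosphatase that removes the phosphate from eIF2 alpha, rose from 140, 121 and 131 CPM to 168, 156 and 159 CPM (log2 fold change 0.30, adjusted p = 0.0048), and its 3′ UTR held a 7mer-A1 and a 6mer. The transcription factor ATF4 and 2 of its target genes fell: ATF4 from 684, 765 and 774 CPM to 632, 648 and 603 CPM (-0.24, adjusted p = 0.025), TRIB3 from 23.6, 30.7 and 22.2 CPM to 18.3, 17.8 and 16.3 CPM (-0.55, adjusted p = 0.00069), and SESN2 from 103, 118 and 107 CPM to 82.4, 79.0 and 84.2 CPM (-0.42, adjusted p = 0.00017). The 3′ UTR of SESN2 held a 7mer-A1, and no match was found in those of ATF4 and TRIB3. Other listed stress-response genes, named after their values were seen, did not pass and lay on both sides of 0: ASNS at 0.27, PPP1R15A at 0.15, DDIT3 at 0.13, ATF3 at -0.24 and CHAC1 at -0.42 on the log2 scale. Translation of ATF4 rises when eIF2 alpha is phosphorylated, which RNA counts do not measure. ATF4 lost its call with the replicate block (adjusted p = 0.082) and when control replicate 2 (0.071), control replicate 3 (0.14) or any miR-34a library (0.061, 0.069 and 0.11 in order) was left out; PPP1R15B, TRIB3 and SESN2 kept theirs in each fit with 1 library left out.

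Over the 6 libraries, the genes whose log2 CPM followed EIF2AK2 most closely, among 10288 whose mean log2 CPM was 3 or more, were NEK4, NUP58 and AVL9, each with a Pearson r of 0.996 or 0.995. The same measure reached at least 0.9 for 776 genes, so these 3 are the top of a long list. For ISG15 the closest were CIAPIN1, UCHL3 and EOLA2, with r of 0.979, 0.974 and 0.968, and 48 genes reached 0.9. These are descriptions over 6 points that share library depth and group.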

How the data were processed

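RNA from HEK293T cells was purified on columns with DNase treatment, and libraries were made with the Illumina TruSeq RNA v2 kit, per the labels' protocols. That kit does not mark strand, so reads of overlapping genes on opposite strands cannot be told apart. The deposited table holds unnormalised read counts by Ensembl gene for each of the 6 libraries. The submitters' processing notes name STAR 2.7.11a, featureCounts, Subread 2.0.3, edgeR 3.42.4 and GRCh38; no source used here gives the annotation release or how reads with several mapping places were counted. Counts of exactly 2 (17529 values) were more frequent than counts of 1 (9672), so low counts may not be independent molecules.

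Genes were filtered with filterByExpr at its defaults (minimum count 10, minimum total 15), which kept 17427 of 63140, scaled by TMM (factors 0.981 to 1.02) and tested in R 4.3.3 by edgeR 4.0.16 (glmQLFit, glmQLFTest); the model held group alone. Benjamini-Hochberg adjustment ran over all tested genes, and an adjusted p under 0.05 is a call. The standard error is the log2 fold change divided by the square root of the F statistic, and the 95% interval uses the t distribution. CPM are counts scaled to the TMM library size. Alternatives were DESeq2 1.42.0, its size factors, library size only, other filters, a replicate block and leaving out each library. Chi-square per degree of freedom between libraries of a group was 7.64 to 14.4, so none looked duplicated. Symbols matched 42291 identifiers. Gene models are GENCODE 29 on GRCh38; promoters and miRNAs are RefSeq's.

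The 9 genes and all lists were chosen with earlier results of these data known. The text names the 9 genes, up to 4 called genes of each list with the lowest adjusted p or the 2 most expressed where none passed, and 8 early pathway outputs; other names were chosen after their values were seen. The result for 1 further gene under this rule is not reported here.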

Additional observations from a re-analysis of the deposited data

How the results depend on the processing

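EIF2AK2 kept its direction in all 12 alternatives and its call in the 6 that kept all libraries (adjusted p = 0.0084 to 0.041). None of the 9 genes fell in any alternative. With library size only, no filter or DESeq2, 2 of the 9 rose, the second being MAVS; with single libraries left out, 0 to 2 rose. The calls over all genes numbered 1317 to 2681 with single libraries left out, lowest without control replicate 2 and next without miR-34a replicate 2 (1331), against 2105 with all 6. With single libraries left out, the dsRNA sensing list held 0 to 2 rises, as did the interferon and receptor list. In the same fits the signalling list held 1 to 3 rises and 1 to 3 falls. The interferon-stimulated list held 0 to 1 rises and 1 to 5 falls, and the eIF2 alpha list 1 to 2 rises and 2 to 4 falls. DESeq2 gave 1 rise in the sensing list, and 2 rises and 1 fall in the signalling list; library size only and no filter also gave 2 rises in the signalling list. In the interferon and receptor list, 1 gene rose with no filter and 0 with the replicate block.

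The fold changes of 3 genes changed sign, none of them called: DHX58 ranged from -0.45 to 0.15 and ISG15 from -0.26 to 0.12 with single libraries left out, and TNIP1 from -0.037 to 0.0052, with 0.0022 under library size only and 0.0012 with no filter. The cause was not tested. Same-numbered libraries of the 2 groups did not deviate together (r = -0.025, 0.022 and -0.076), so no pairing by number was seen. These values cannot show whether same-numbered libraries were prepared together. With the replicate block 1830 genes were called and EIF2AK2 kept its call (adjusted p = 0.041, edgeR). DESeq2 gave no adjusted p for RIGI, IFIH1 and DHX58, and no DESeq2 result was available for IFI35. At under 60 counts per library, the depth for IFIH1, DHX58 and RIGI limits what can be seen. The calls of IKBKE and IFI35 rest on similarly low counts.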

Other observations

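The promoter element shown for EIF2AK2, IFIH1, IFIT5 and ISG15 was also counted over all genes. Of the 445 tested genes with the element in their window, 5.17% rose and 5.84% fell, with a median log2 fold change of 0.02; of all 11885 tested genes with a window, 6.45% rose and 7.63% fell, with a median of -0.01. Both shares were lower among genes with the element; the difference was not tested.

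Beside HLA-B and HLA-C, 3 other genes of class I antigen presentation, chosen after their values were seen, did not pass. HLA-E was lower by a log2 fold change of -0.18 (edgeR, adjusted p = 0.11), and B2M and the peptide transporter gene TAP1 had values of -0.04 and -0.10 on the same scale.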
